A study of Mus musculus with 4 samples.

Results

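T cell and cytotoxic genes were examined in bulk RNA sequencing of the mouse stomach. The 10 genes, chosen by name out of the 46095 gene symbols of the deposited count table, are the receptor complex genes *Cd3d*, *Cd3e*, *Cd3g* and *Cd247*, the lineage genes *Cd4*, *Cd8a* and *Foxp3*, and the cytotoxic genes *Gzma*, *Gzmb* and *Nkg7*. The study compared 2 WT mice with 2 *Atp4b-cre;MycOE* mice (samples labelled MYC-KI), all of strain C57BL/6 and 12 weeks old. In the *Atp4b-cre;MycOE* mice, Cre recombinase under the *Atp4b* promoter turns on a floxed human *c-Myc* transgene in the parietal cell lineage, so immune cells are not the cells in which the transgene is meant to act. The mice called WT were, by the methods of the study, *Myc fl/fl* littermates, which carry the floxed transgene without Cre.

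T cells recognize antigen through a receptor whose variable chains are held in the membrane by the CD3 chains and the CD247 (zeta) chain. These partners carry tyrosine motifs, called ITAMs, that the kinase Lck phosphorylates when the receptor is engaged. CD4 and CD8 are coreceptors that divide helper from killer T cells, and FOXP3 is the transcription factor that defines regulatory T cells. Cytotoxic T cells and natural killer (NK) cells kill by releasing granules with perforin and granzymes, and NKG7 is a membrane protein of these granules. In the gastric wall such lymphocytes lie between epithelial cells and in the lamina propria, and they are few in a healthy stomach.

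The 4 receptor complex genes are known for a shared sequence feature, the coding stretch of the ITAM, and only these 4 were searched for it. A search of their coding sequences (GENCODE M21, GRCm38) for 2 tyrosine codons, each followed at the third codon after it by a leucine or isoleucine codon, and 6 to 8 codons between these 2 groups, found 6 motifs, namely 1 in each CD3 gene and 3 in *Cd247*. They are shown because this is the part of each gene through which the complex signals, with the tyrosine and leucine or isoleucine codons in capitals, in the sense of the mRNA.
*Cd3d*, coding bases 445 to 489: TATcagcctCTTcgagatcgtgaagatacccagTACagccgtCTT
*Cd3e*, coding bases 508 to 552: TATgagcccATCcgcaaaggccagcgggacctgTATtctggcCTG
*Cd3g*, coding bases 478 to 522: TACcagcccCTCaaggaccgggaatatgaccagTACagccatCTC
*Cd247*, coding bases 214 to 258: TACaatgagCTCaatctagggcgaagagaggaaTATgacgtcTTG
*Cd247*, coding bases 331 to 378: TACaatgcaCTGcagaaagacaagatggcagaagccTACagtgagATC
*Cd247*, coding bases 424 to 468: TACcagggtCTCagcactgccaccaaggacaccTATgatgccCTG

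The genes are placed on the build mm10 that the submitters' processing notes name, by GENCODE M21 on GRCm38, the same assembly. *Cd3g* (chr9:44969572-44980431), *Cd3d* (chr9:44981786-44987339) and *Cd3e* (chr9:44998740-45009627) are neighbours. *Cd247* is at chr1:165788681-165877277, *Cd4* at chr6:124864692-124888221, *Cd8a* at chr6:71373427-71379173 and *Foxp3* at chrX:7573644-7595245. *Gzma* is at chr13:113093825-113100981, *Gzmb* at chr14:56258838-56262260 and *Nkg7* at chr7:43437073-43438249. By the RefSeq gene list of GRCm38.p6, *Gzma* lies within *Cdc20b*, *Cd247* overlaps *Pou2f1*, *Gm32999* and *Gm23402*, and *Foxp3* overlaps *Ccdc22* and *Flicr*. The strand setting of the counting is not given in the sources used here, so reads in these overlaps may belong to either gene. The other 7 genes overlap no RefSeq gene.

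Every gene is read after the MYC-KI counts, in row order, were assigned to the names put in character-code order, because the deposited names and MYC-KI counts are out of register. The move is by 6 rows for the 6 genes whose names start with Cd, by 1 row for *Foxp3*, *Gzma* and *Gzmb*, and by 2 rows for *Nkg7*. Over the 61 rows around each gene, Pearson's r between the genotype means of log2(count + 1) was 0.0668 to 0.304 as deposited and 0.918 to 0.986 after re-sorting, a description across genes. In the deposited table the *Foxp3* row lists 5063 and 6058 MYC-KI counts, which re-sorting gives to *Foxp4*, and the *Cd3g* row lists 465 and 1214, which it gives to *Cd36*.

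The samples held 30260305 to 41463647 counts. Parietal and chief cell markers, which check the labelled tissue, summed to 91356 to 95534 normalized CPM (counts per 1000000 counts of the library, after TMM scaling) in WT and to 1462 to 1834 in MYC-KI. The endogenous mouse *Myc* gene had WT counts of 1062 and 759 and MYC-KI counts of 735 and 1091, and with no row for the human transgene it does not check the genotype. *Xist*, expressed in females, had 17846 counts in WT replicate 2 and 85 to 201 in the other samples, and the Y-linked *Ddx3y* had 5 there and 1861 to 2623 elsewhere. WT replicate 2 therefore differs from the other 3 samples in the sex that these genes mark, and the log2 fold change of each member is also given without it. Nothing in the labels says how the 2 samples of a genotype were split beyond their numbers, so p-values measure the spread between these samples.

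The members were rare in every sample. Their counts ranged from 1 to 211, and the 10 genes together had WT counts of 466 and 282 and MYC-KI counts of 733 and 317. Scaled by library, that was 13.9 and 10.1 normalized CPM in WT and 21.6 and 7.10 in MYC-KI, so both MYC-KI samples lay outside the WT range, on opposite sides of it. Under edgeR's quasi-likelihood test, with a gene called when its adjusted p was under 0.05 and its change more than 1.5-fold, 0 of the 10 passed, against 10.7% of the 17643 tested genes (5.65% higher and 5.08% lower in MYC-KI). At an unadjusted p under 0.05, 0 of 10 passed with edgeR and 0 with DESeq2. Of all tested genes 34.1% did with edgeR, and 6183 of 26731 with DESeq2. These shares, and that of the called genes, cover genes of all levels and are not matched to the low counts of the members. All 10 passed the filter on low counts. The log2 fold changes had a median of 0.38, with 6 above and 4 below 0, beside a median of 0.01 over all tested genes. In bulk tissue fewer cells of a type and less RNA per cell cannot be told apart.

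**Figure D1:**
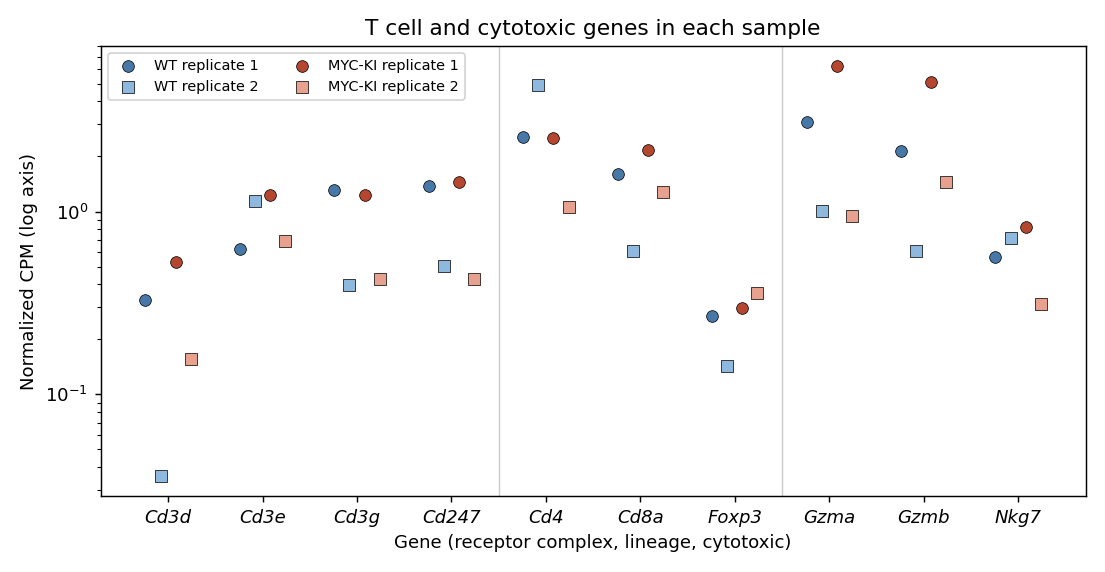
Normalized CPM on a log axis for each of the 10 genes, with 1 point per sample, circles for replicate 1 and squares for replicate 2, blue for WT and red for MYC-KI. *Gzma* and *Gzmb* in MYC-KI replicate 1 are the highest points, at 6.22 and 5.10, and *Cd3d* in WT replicate 2 is the lowest, at 0.0358.

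Of the receptor complex, *Cd3e*, the epsilon chain, which pairs with both the gamma and the delta chain, had WT counts of 21 and 32 and MYC-KI counts of 42 and 31. In normalized CPM this was 0.626 and 1.15 against 1.24 and 0.694, with each genotype holding a high and a low sample. The means were 0.886 ± 0.369 (SD, n = 2) and 0.966 ± 0.385 (SD, n = 2). The log2 fold change of MYC-KI over WT was 0.12 ± 0.55 (SE, edgeR adjusted p = 0.899). Its 95% interval, from -1.36 to 1.61, spans 0.390-fold to 3.04-fold, and without WT replicate 2 the log2 fold change was 0.62.

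*Cd3g*, the gamma chain, had WT counts of 44 and 11 and MYC-KI counts of 42 and 19. *Cd247*, the zeta chain, which NK cells also use, had WT counts of 46 and 14 and MYC-KI counts of 49 and 19. Both genes were high in replicate 1 and low in replicate 2 of each genotype, and the genotypes overlapped. In normalized CPM *Cd3g* was 0.853 ± 0.648 (SD, n = 2) in WT and 0.832 ± 0.575 (SD, n = 2) in MYC-KI, and *Cd247* was 0.936 ± 0.614 and 0.935 ± 0.721. Their log2 fold changes were -0.06 ± 0.84 (SE) and -0.02 ± 0.83 (SE), with edgeR adjusted p = 0.970 and 0.988, and without WT replicate 2 they were -0.67 and -0.56. The spread within a genotype was thus far larger than the difference between genotypes, and the intervals reached from 0.200-fold to 4.62-fold for *Cd3g* and from 0.210-fold to 4.63-fold for *Cd247*.

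*Cd3d*, the delta chain, had WT counts of 11 and 1 and MYC-KI counts of 18 and 7, the thinnest values of the complex. Its fold change moved with every sample left out. It was 0.84 ± 1.14 (SE, edgeR adjusted p = 0.652) on the log2 scale with all samples, 0.04 without WT replicate 2, 3.12 without WT replicate 1, -0.24 without MYC-KI replicate 1 and 1.49 without MYC-KI replicate 2. The 3 CD3 genes together had WT counts of 76 and 44 and MYC-KI counts of 102 and 57, which is 2.26, 1.58, 3.01 and 1.28 normalized CPM, and again the genotypes overlapped.

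The rows of the receptor chains themselves add little. *Trac*, *Trbc1* and *Trbc2*, the constant regions of the alpha and beta chains, are listed at 0 in all 4 samples, and so are 248 of the 250 rows of receptor V and J segments. In RefSeq these constant regions lie inside the locus-wide entries *Tcra* and *Tcrb*, which have rows of their own. *Tcra* had WT counts of 12 and 4 and MYC-KI counts of 18 and 17, and *Tcrb* had 15 and 41 against 34 and 21. The gamma chain row *Tcrg* had 15 and 10 against 15 and 15. *Tcrg-C2*, at 0 and 1 in WT and 28 and 5 in MYC-KI, was higher in both MYC-KI samples, most of all in replicate 1. *Trdc*, which also lies inside *Tcra*, had WT counts of 1 and 0 and MYC-KI counts of 3 and 0. Whether reads were lost to this overlap was not tested, and the 0 of *Trac*, *Trbc1* and *Trbc2* is not read here as a measure of T cells. *Cd2*, an adhesion receptor of T and NK cells that overlaps no RefSeq gene, had 0 counts in 3 samples and 1 in MYC-KI replicate 2. Up to 3 counts are compatible with a count of 0, a limit that covers counting error only.

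Among the lineage genes, *Cd4* was the one with its highest level in WT. It had WT counts of 86 and 138 and MYC-KI counts of 86 and 47, or 2.56 and 4.95 against 2.54 and 1.05 normalized CPM. Both MYC-KI samples lay below both WT samples, but the first WT and the first MYC-KI sample were nearly level. The means were 3.75 ± 1.69 (SD, n = 2) and 1.79 ± 1.05 (SD, n = 2), and the log2 fold change was -1.07 ± 0.60 (SE, edgeR adjusted p = 0.285, 95% interval -2.68 to 0.54). It was -0.52 without WT replicate 2. CD4 is also made by some macrophages and dendritic cells. Of the 14 tested genes in a list of 16 myeloid markers, 8 fell and 1 rose in MYC-KI, and the list's summed level was 360 to 370 normalized CPM in WT and 161 to 170 in MYC-KI, with *Ly6g* at 0 in all samples. The macrophage genes *Adgre1* (log2 fold change -2.27), *Csf1r* (-1.56) and *Lyz2* (-1.60) and the plasmacytoid dendritic cell gene *Siglech* (-2.98) were among those that fell, and *Cd14* (1.95) was the one that rose. The part of these cells in the *Cd4* values was not tested.

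*Cd8a*, the alpha chain of the killer cell coreceptor, had WT counts of 54 and 17 and MYC-KI counts of 74 and 57. WT replicate 2 was the low sample, at 0.609 normalized CPM against 1.28 to 2.18 in the other 3, and the genotypes overlapped. Its log2 fold change was 0.63 ± 0.62 (SE, edgeR adjusted p = 0.529, 95% interval -1.04 to 2.30), and 0.10 without WT replicate 2. The partner chain *Cd8b1* had WT counts of 8 and 12 and MYC-KI counts of 18 and 7, a log2 fold change of 0.02 (edgeR adjusted p = 0.986).

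The mean of *Foxp3* per kilobase of exon was the lowest of the 10 in each genotype, though *Cd3d* was lower in WT replicate 2. *Foxp3* had WT counts of 9 and 4 and MYC-KI counts of 10 and 16. Both MYC-KI samples, at 0.295 and 0.358 normalized CPM, lay above both WT samples, at 0.268 and 0.143. For this gene the log2 fold change was 0.65 ± 0.59 (SE, edgeR adjusted p = 0.498, 95% interval -0.94 to 2.24), and 0.28 without WT replicate 2. *Cd4* and *Foxp3* were the only members whose genotypes did not overlap, 2 of 10, where 64.9% of all tested genes did not overlap (33.3% higher and 31.5% lower in MYC-KI).

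Of the cytotoxic genes, both granzymes spread widely between samples. *Gzma*, a granule protease of trypsin-like specificity, had WT counts of 104 and 28 and MYC-KI counts of 211 and 42, or 3.10 and 1.0 against 6.22 and 0.940 normalized CPM. MYC-KI replicate 1 was the highest sample and MYC-KI replicate 2 the lowest, so the 2 WT samples lay between them. The means were 2.05 ± 1.48 (SD, n = 2) and 3.58 ± 3.73 (SD, n = 2), with a log2 fold change of 0.79 ± 1.05 (SE, edgeR adjusted p = 0.645). It was 0.20 without WT replicate 2, -1.13 without MYC-KI replicate 1 and 1.59 without MYC-KI replicate 2, so the sign of the difference depends on which MYC-KI sample is kept.

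*Gzmb*, the aspartate-cleaving granzyme that starts apoptosis in target cells, had WT counts of 72 and 17 and MYC-KI counts of 173 and 65. In normalized CPM it was 2.15 and 0.609 against 5.10 and 1.46, and the lower MYC-KI sample lay below the higher WT sample. The log2 fold change, 1.24 ± 0.89 (SE, edgeR adjusted p = 0.393, 95% interval -1.16 to 3.63), was the largest difference above 0 among the 10 and did not pass the test. It was 0.07 without MYC-KI replicate 1, 0.60 without WT replicate 2 and 2.42 without WT replicate 1.

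*Nkg7* had WT counts of 19 and 20 and MYC-KI counts of 28 and 14. Its WT samples were nearly level, at 0.566 and 0.717 normalized CPM, while the MYC-KI samples lay on either side of them, at 0.826 and 0.313. On the log2 scale the fold change was -0.18 ± 0.63 (SE, edgeR adjusted p = 0.866, 95% interval -1.88 to 1.51), and -0.01 without WT replicate 2.

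**Figure D2:**
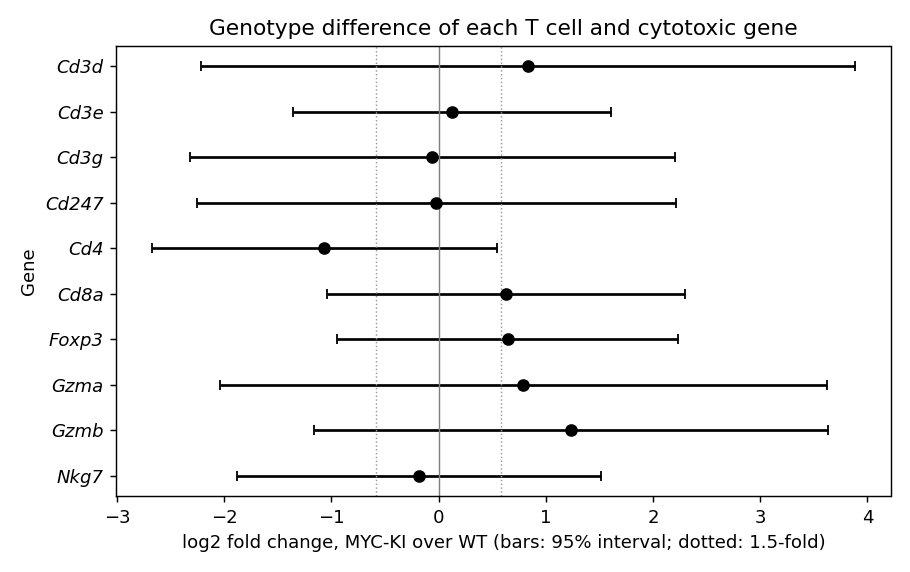
The log2 fold change of MYC-KI over WT for each of the 10 genes, with points at the fitted value and bars for its 95% interval, and dotted lines at a 1.5-fold change in either direction. All 10 intervals include 0, and the widest are those of *Cd3d* (-2.21 to 3.89) and *Gzma* (-2.04 to 3.63).

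Several members differed between the replicates of a genotype in the same direction. In 7 of 10 genes WT replicate 1 exceeded WT replicate 2, in 9 of 10 MYC-KI replicate 1 exceeded MYC-KI replicate 2, and in 6 of 10 both held, where 24.3% of all tested genes showed both. Those 6 were *Cd3d*, *Cd3g*, *Cd247*, *Cd8a*, *Gzma* and *Gzmb*. *Gzmb* was 3.52-fold higher in replicate 1 of WT and 3.51-fold higher in replicate 1 of MYC-KI, and for *Gzma* these ratios were 3.09 and 6.62. *Cd3e*, *Cd4* and *Nkg7* went the opposite way in WT, with replicate 1 at 0.546, 0.518 and 0.790 of replicate 2. WT replicate 2 is the sample with 17846 *Xist* counts, and the part of sex in these differences was not tested.

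Levels were compared between genes per kilobase of exon. In WT the order was *Gzma* (2.04 normalized CPM per kb), *Gzmb* (0.959), *Cd4* (0.931), *Nkg7* (0.702), *Cd8a* (0.305), *Cd3g* (0.261), *Cd3e* (0.217), *Cd247* (0.176), *Cd3d* (0.100) and *Foxp3* (0.0450). Of the 9 neighbouring steps in that order, only the step from *Nkg7* to *Cd8a* separated the samples without overlap. In MYC-KI the order began with *Gzma* (3.56) and *Gzmb* (2.28), went on with *Nkg7* (0.623), *Cd8a* (0.475) and *Cd4* (0.445), and ended with *Foxp3* (0.0713). There 2 of 9 steps separated the samples, from *Gzmb* to *Nkg7* and from *Cd247* to *Foxp3*. Per length, the granzymes thus stood above the CD3 genes in both genotypes.

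By the distance between centred log2 CPM profiles over the 4 samples, the tested genes most like the summed CD3 genes were *Gm38750* (0.0599 log2 units), *Khk* (0.144), *Tkfc* (0.144), *Il18bp* (0.152) and *Mx2* (0.173), out of 15143 compared. With only 4 samples many genes share such a profile. The members lay farther off, from 0.664 for *Cd247* to 1.54 for *Cd4*.

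Other genes of the same cells were read from 7 lists, of which 101 of 105 genes have a row in the table and 65 were tested. Of these 5 rose and 2 fell in MYC-KI, which is 10.8% called beside 10.7% of all tested genes. The 5 include *Gzmd* to *Gzmg*, which passed the filter on low counts only through MYC-KI. Of the receptor chains and partners 4 of 14 could be tested, and of the receptor signalling genes 12 of 16, and in both lists 0 passed with edgeR. *Lck*, the kinase that phosphorylates the ITAMs, had WT counts of 19 and 16 and MYC-KI counts of 35 and 32, a log2 fold change of 0.61 (edgeR adjusted p = 0.391). *Lat*, the adaptor that *Zap70* phosphorylates, had 12 and 18 against 63 and 58, a log2 fold change of 1.65 ± 0.50 (SE, edgeR adjusted p = 0.101). *Zap70* itself was at 28 and 20 against 36 and 23 counts.

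The most abundant signalling and surface genes of those lists, *Rasgrp1* (log2 fold change -0.21, adjusted p = 0.418), *Fyn* (-0.75, adjusted p = 0.0530 from edgeR) and *Thy1* (-0.74, adjusted p = 0.147), are also made by cells other than T cells. The transcription factors of T cell fate gave 8 tested genes with a median of -0.56 on the log2 scale and 0 called, and were led in level by *Zbtb7b* (-0.46, edgeR adjusted p = 0.0508).

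Of the regulatory and inhibitory receptors 1 of 8 tested genes was called. *Tigit*, an inhibitory receptor of T and NK cells, had WT counts of 9 and 5 and MYC-KI counts of 81 and 73, a log2 fold change of 3.14 ± 0.49 (SE, edgeR adjusted p = 0.0331). *Tigit* overlaps *Zbtb20* in RefSeq, and the value did not pass without MYC-KI replicate 1 (2.84, adjusted p = 0.0793). The most abundant genes of that list, *Lrrc32* (-1.19) and the regulatory T cell factor *Ikzf2* (0.51), did not pass. Of the homing and residence genes 1 of 12 was called, *S1pr1*, the receptor through which lymphocytes leave tissue and which endothelium also makes. It fell from 762 and 756 counts in WT to 334 and 454 in MYC-KI, by 1.31 on the log2 scale (SE 0.15, edgeR adjusted p = 0.0228). The adhesion receptor *Cd44* (0.55) and *Klf2* (-1.13), the factor that drives *S1pr1* in T cells, did not pass. Of the NK cell receptors and adaptors 1 of 8 was called, the Fc receptor *Fcgr3*, which macrophages share, with a log2 fold change of -1.55 ± 0.29 (SE, edgeR adjusted p = 0.0447) and of -1.37 without MYC-KI replicate 1 (adjusted p = 0.0807). *Tyrobp*, a signalling adaptor with an ITAM that myeloid cells also use, was at -1.01 (adjusted p = 0.0776). The activating NK receptor *Klrk1* had WT counts of 13 and 10 and MYC-KI counts of 1 and 3 (log2 fold change -2.81, adjusted p = 0.0685), and *Ncr1* had 2 and 8 against 1 and 0 and was too low to be tested.

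**Figure D3:**
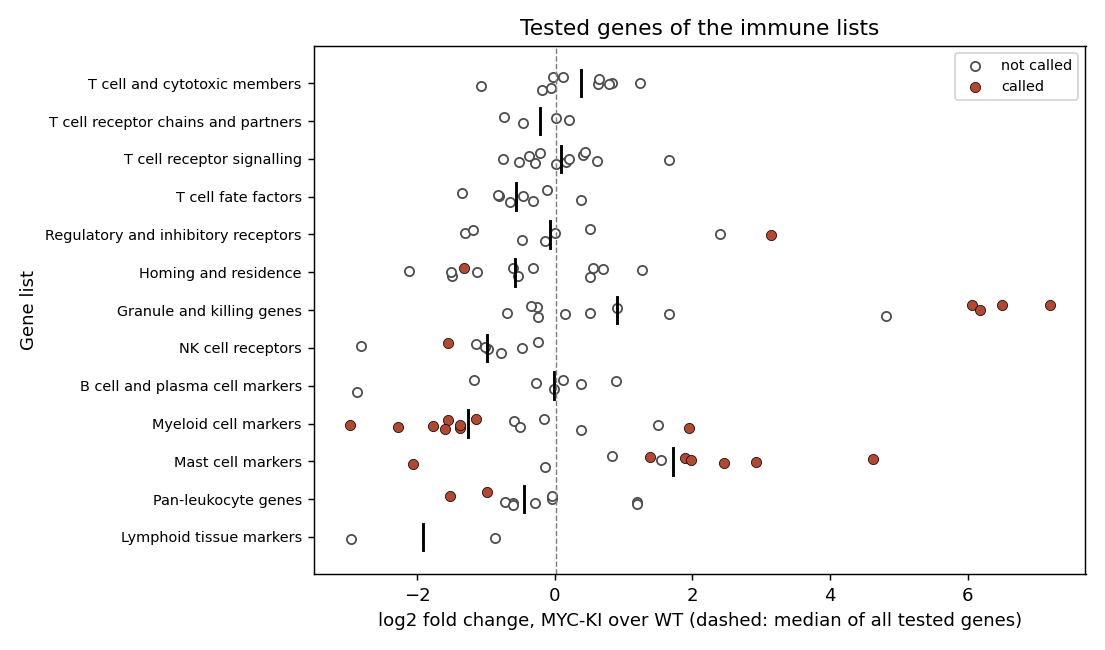
The log2 fold change of MYC-KI over WT for the tested genes of each immune gene list, with filled points for genes called, open points for genes not called, a black bar at the median of each list and a dashed line at the median of all tested genes. The 10 members lie between -1.07 and 1.24 with no filled point, and the 4 filled points at the far right are *Gzmd*, *Gzme*, *Gzmf* and *Gzmg*.

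The granule genes held the calls nearest to the members. Of 13 tested, 4 rose and 0 fell: *Gzmd*, *Gzme*, *Gzmf* and *Gzmg*, which lie with *Gzmb* in a cluster of granzyme genes on chromosome 14. These 4, and *Gzmc*, passed the filter on low counts only through their MYC-KI samples, so a call could only be higher. None of them was tested at a minimum of 10 counts in every sample. *Gzmd* had 1 count and 0 in WT and 59 and 81 in MYC-KI, 109-fold more after scaling (95% exact interval 19.3 to 4355, for counting error). That fold rests on 1 WT count, and the fitted log2 fold change of 6.5 was 8.98 without WT replicate 1 and 5.74 without WT replicate 2. *Gzmf* had 1 and 0 against 46 and 57, and *Gzmg* 1 and 0 against 47 and 65. *Gzme*, with 0 counts in WT and 14 and 28 in MYC-KI, was at least 10.9-fold higher, taking a floor of 3 counts over both WT samples. The adjusted p-values of the 4 genes lay between 0.0245 and 0.0483 from edgeR. *Gzmc*, with 0 and 2 against 28 and 55 counts, did not pass with edgeR (adjusted p = 0.0543) and passed with DESeq2 (adjusted p = 0.0049), by library size and without the filter on low counts, with adjusted p up to 0.232 over the alternatives. Perforin, *Prf1*, with 7 and 2 against 13 and 24, did not pass with edgeR (log2 fold change 1.67, adjusted p = 0.179). The granule proteoglycan gene *Srgn* (-0.26) and *Serpinb9* (-0.35), whose product inhibits granzyme B, did not pass either. *Gzmc* to *Gzmg* together had WT counts of 3 and 2 and MYC-KI counts of 194 and 286, so in this cluster MYC-KI replicate 2 was not the low sample that it was for *Gzma* and *Gzmb*. Of the 4 calls 1 remained without MYC-KI replicate 1, 3 without MYC-KI replicate 2, where *Gzme* was not tested, and 0 without either WT sample, where no gene of the whole table was called.

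The cluster genes are close copies, and reads that match several of them could be split or dropped by the authors' counting. Over their coding sequences *Gzmd*, *Gzme*, *Gzmf* and *Gzmg* were 84.7% to 94.8% identical to one another, with exactly shared runs of up to 96 bases. *Gzmb* was 67.2% to 75.9% identical to *Gzmc* to *Gzmg*, with shared runs of at most 49 bases. The first 60 coding bases on the minus strand of chromosome 14 show how far *Gzmb* stands from the others, with capitals for the bases that differ from *Gzmb*.
*Gzmb*: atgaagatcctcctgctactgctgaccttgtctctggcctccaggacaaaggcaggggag
*Gzmc*: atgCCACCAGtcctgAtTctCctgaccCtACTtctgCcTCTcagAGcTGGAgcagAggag
*Gzmd*: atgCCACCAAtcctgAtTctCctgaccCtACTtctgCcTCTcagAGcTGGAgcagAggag
*Gzme*: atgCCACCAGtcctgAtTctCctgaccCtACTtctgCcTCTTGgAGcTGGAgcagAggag
*Gzmf*: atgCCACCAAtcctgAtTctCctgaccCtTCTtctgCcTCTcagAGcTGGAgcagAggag
*Gzmg*: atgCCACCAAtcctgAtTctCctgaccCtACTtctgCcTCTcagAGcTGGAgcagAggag
In this stretch *Gzmd* and *Gzmg* are identical, and 25 to 27 bases differ between *Gzmb* and the other 5 genes. The counts of *Gzmd* to *Gzmg* are therefore uncertain gene by gene.

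**Figure D4:**
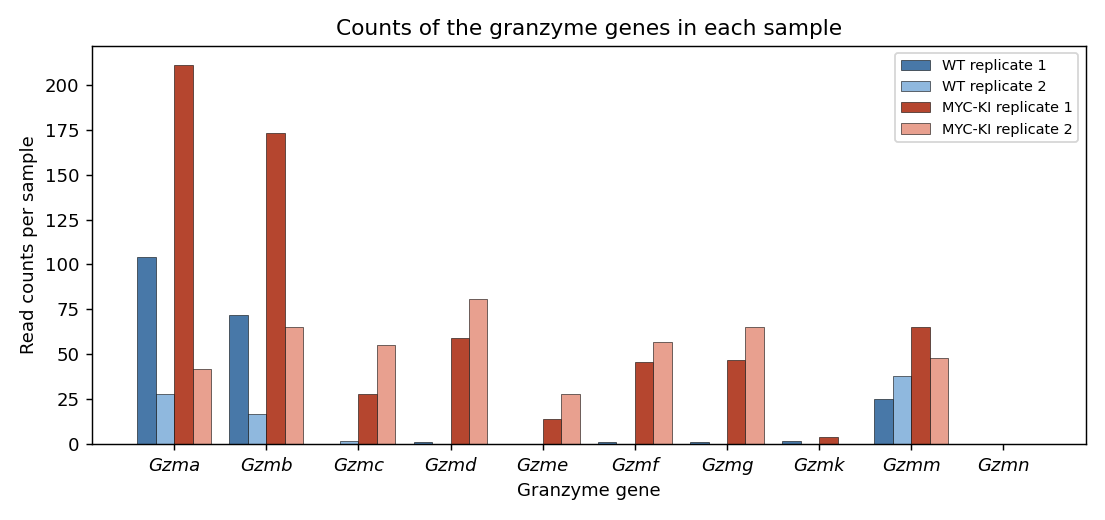
Read counts of 10 granzyme genes in each sample, as bars on a linear axis from 0, with blue for WT and red for MYC-KI and the lighter shade for replicate 2. *Gzma* and *Gzmb* have counts in every sample and peak in MYC-KI replicate 1, at 211 and 173, while *Gzmc* to *Gzmg* have 0 to 2 counts in the WT samples and 14 to 81 in the MYC-KI samples.

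Mast cells also make granule proteases, and *Gzmb* is found in some of them. Of 10 mast cell markers, all tested, 6 rose and 1, *Hdc*, fell, and their summed level was 140.4 to 140.7 normalized CPM in WT and 277 to 280 in MYC-KI, with none at 0. Most of the WT sum was *Kit* and *Hdc*, with means of 60.6 and 48.9 normalized CPM, against 54.7 and 11.7 in MYC-KI. *Mcpt2* (log2 fold change 2.93) and *Fcer1a* (2.46) were among those that rose. *Mcpt1* had WT counts of 40 and 167 and MYC-KI counts of 2728 and 4212. The part of mast cells in the granzyme values was not tested.

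Of 10 genes that mark all leukocytes 0 rose and 2 fell, *Dock2* (log2 fold change -1.52) and *Coro1a* (-0.99), and their summed level was 111 to 126 normalized CPM in WT and 101 to 142 in MYC-KI. The median log2 fold change of the list was -0.45, and *Rac2* (1.20) and *Vav1* (1.20), neither called, were the only genes above 0. For each count of *Ptprc* (CD45) there were 0.0418 and 0.0541 counts of *Cd3e* in WT and 0.0566 and 0.0521 in MYC-KI. B cell and plasma cell markers had 0 of 7 tested genes called. Of 10 lymphoid tissue markers 2 could be tested and 0 were called, and *Ccl19*, *Ccl21a*, *Glycam1*, *Ltb*, *Rag2* and *Dntt* were at 0 in every sample. The squamous forestomach list had 0 of 10 called, with sums of 1530 to 2680 in WT and 912 and 4514 normalized CPM in MYC-KI replicate 1 and 2, and in the pancreatic acinar list 3 of 4 tested genes fell. In the parietal and chief cell list 9 of 10 tested genes fell.

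MYC binds DNA at the E-box CACGTG, which reads the same on both strands. RefSeq promoters of 300 bases (250 before and 50 after the start, GRCm38.p6) were given for 9 of the 10 genes, 10 windows in all because *Foxp3* has 2, and 0 of them hold this hexamer. It is found in 7.15% of all 32851 promoter windows, so most windows of this length lack it.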

How the data were processed

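Gastric RNA was sequenced from 2 WT and 2 *Atp4b-cre;MycOE* mice, and the authors deposited 1 table of raw counts per gene symbol, without normalization. The series describes its profiles as made in triplicate, and 2 samples of each genotype were analysed here. The submitters' processing notes name HISAT2 and mm10, and the counting tool, annotation and strand setting are not given in the sources used here. Of the symbols, 41483 (90.0%) match RefSeq names. MYC-KI counts were re-sorted as described above, and no name or column was left out.

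Differences were tested by the quasi-likelihood F test of edgeR 4.0.16 under R 4.3.3, with TMM factors, the filterByExpr filter and Benjamini-Hochberg adjustment over all 17643 tested genes, at the study's thresholds. Standard errors are the absolute log2 fold change over the square root of F, and 95% intervals use the moderated degrees of freedom. The scripts were tested on simulated data. Replicates differed beyond counting noise (chi-square per degree of freedom 22.7 in WT and 74.9 in MYC-KI). Alternatives were other scalings, filters and thresholds, DESeq2 1.42.0, a replicate block, each sample left out and the table as deposited.

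The members and lists were chosen with earlier results of these data known. Named genes are the members, the called genes of each list (at most 4, by size) and its 2 most abundant, and the 5 closest profiles, and for cell types other than T and NK cells only those beside a result of a member are printed. An item that the rule names is not reported here. Others, such as *Lck*, *Lat*, *Zap70*, *Cd8b1*, *Klrk1*, *Ncr1*, *Prf1*, *Gzmc*, the receptor loci and *Cd2*, were named after their values were seen.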

Additional observations from a re-analysis of the deposited data

How the results depend on the processing

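The count of members called was 0 under all alternatives on the re-sorted table. In the table as deposited it was 5, with log2 fold changes of 9.44 for *Foxp3*, 6.59 for *Nkg7*, 4.63 for *Cd3g*, -5.79 for *Cd247* and -1.30 for *Cd4*, and the uncalled *Cd3e*, *Cd8a* and *Gzmb* turned to -0.054, -0.21 and -0.36; re-sorting gives those counts to other names. Scaling by library size moved the median of all genes from 0.01 to 0.23, and *Cd3g* (0.16), *Cd247* (0.20) and *Nkg7* (0.040) changed sign with it. Over all genes, 1892 were called, 3011 by library size (75.5% of them higher, against 52.6%), 3232 with DESeq2, 1113 at an absolute log2 fold change above 1, 18580 as deposited, and 0 to 2470 when each sample was left out. The 0 came without either WT sample, where 3554 and 3410 genes had an unadjusted p under 0.05; the lone sample of a genotype is there assumed to vary like the other.

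Leaving out each sample gave log2 fold changes of -0.24 to 3.12 for *Cd3d*, -0.34 to 0.62 for *Cd3e*, -1.01 to 1.06 for *Cd3g*, -1.14 to 0.88 for *Cd247*, -1.83 to -0.52 for *Cd4*, 0.10 to 1.5 for *Cd8a*, 0.28 to 1.17 for *Foxp3* (3 fits), -1.13 to 1.83 for *Gzma*, 0.07 to 2.42 for *Gzmb* and -1.02 to 0.37 for *Nkg7*. *Foxp3* was not tested without MYC-KI replicate 2, *Cd3d* and *Foxp3* not at a minimum of 10 counts, and *Cd3d* not as deposited.

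With the replicate number as a block 114 genes and 0 members were called, and *Cd3g* was at 0.0046. *Gzmd* to *Gzmg*, *Tigit*, *S1pr1* and *Fcgr3* did not pass there (edgeR adjusted p 0.0584 to 0.122), at log2 fold changes close to those without the block (for *Tigit* 3.15 against 3.14, for *Fcgr3* -1.54 against -1.55). The numbers are not known to pair the mice: differences of replicate 1 and 2 correlated at r = 0.067 between genotypes over all tested genes. The members had 1 to 211 counts per sample.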

Other observations

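Ratios between members were chosen after the values were seen and were not tested. There were 0.628 and 0.123 counts of *Cd8a* for each count of *Cd4* in WT, and 0.860 and 1.21 in MYC-KI, so both MYC-KI samples lay above both WT samples. For *Foxp3* the ratios to *Cd4* were 0.105 and 0.0290 in WT and 0.116 and 0.340 in MYC-KI. The ratio of *Gzmb* to *Gzma* was 0.692 and 0.607 in WT and 0.820 and 1.55 in MYC-KI. In the other member ratios computed the genotypes overlapped, with *Gzma* to *Cd3g* at 2.36 and 2.55 in WT and 5.02 and 2.21 in MYC-KI, and *Gzmb* to *Cd8a* at 1.33 and 1.0 in WT and 2.34 and 1.14 in MYC-KI.

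*Ccl5*, a chemokine of memory and effector T cells, had WT counts of 78 and 20 and MYC-KI counts of 90 and 34. It was high in replicate 1 and low in replicate 2 of each genotype, as *Gzma* and *Gzmb* were, and was named after its values were seen. In its list of granule and killing genes *Ctsw* and *Tnfsf10* shared that order, while *Prf1*, *Gzmm*, *Cst7* and *Srgn* did not. Of all tested genes 24.3% showed replicate 1 above replicate 2 in both genotypes.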
